A study of Mus musculus with 4 samples.

Results

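The cells described here are CD4 T cells of the mouse colon that held at least 1 count of Ikzf2, which encodes the transcription factor Helios, and no count of Foxp3 or Il10. They were chosen by these 3 gene counts among the cells that passed a filter on depth, and numbered 137 of 1050 cells (13.05%, exact 95% interval 11.07% to 15.24%). Members were set beside 166 kept cells with counts of both Ikzf2 and Foxp3 (with or without Il10), and beside 461 kept cells with none of the 3 genes. Ikzf2 lies on chromosome 1 (69531214-69687245, minus strand), Foxp3 on chromosome X (7573644-7595245) and Il10 on chromosome 1 (131019845-131024974), in mm10. All are protein-coding genes. Because these 3 genes chose the cells, their levels are given only as a description and support nothing.

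Helios belongs to the Ikaros family of zinc finger transcription factors. In CD4 T cells it is best known from regulatory T cells (Tregs), the suppressive lineage specified by Foxp3, where it supports a stable regulatory identity and is common among cells that acquired Foxp3 in the thymus. Helios is also induced in conventional T cells by strong or repeated receptor signalling, and it accompanies the agonist selection of self-reactive thymocytes. The colon holds both thymus-derived, Gata3-expressing Tregs and Tregs induced by the microbiota, together with effector and memory CD4 cells.

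The cells came from male B6 mice aged 6 weeks. They were sorted by flow cytometry from digested colon lamina propria on CD45, TCRb and CD4, and profiled by inDrops, a droplet method that primes on poly(A) tails. The labels list 4 samples titled Btheta_colon with no second group, genotype contrast or untreated control, and they do not spell out the term Btheta. The barcodes carry no sample, so all values come from 1 pooled sample, no test between groups was possible, and every interval covers counting error only.

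Of 1985 barcodes, 1071 had at least 500 counts, 1058 of these also at least 200 genes, and 1050 also under 20% mitochondrial counts. Members had 527 to 7814 counts per cell, with a median of 1211, beside medians of 1384.5 in the Ikzf2-positive Foxp3-positive cells and 1204 in the cells with none of the 3. Summed over cells, the 3 sides held 203896, 264585 and 656937 counts. A further 20 barcodes of the same gate were left out by the filter. The 3 members nearest to the depth limit had a median of 584 counts, and the 3 barcodes of the same gate nearest below it a median of 477.

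The gate was shallow at the level of a single cell. Ikzf2 was read once in 68 members, 2 times in 38 and 3 or more times in 31, with a maximum of 14. Foxp3 stood at 1387 CPM (a gene's share of all counts of a side, scaled to a common total) in the Ikzf2-positive Foxp3-positive cells, where 66 of 166 cells held a single count. A member of median depth with 0 counts of Foxp3 could still have had up to 2477 CPM, the level that 3 counts would give, so a count of 0 in 1 cell does not show that Foxp3 was absent there. Over all 137 members together, a count of 0 allows up to 14.71 CPM, but for Foxp3 that total is 0 by the choice of cells.

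The members carried T cell transcripts. Over all counts of a cell, at least 1 of Cd3e, Cd3d, Cd3g, Cd247, Trac, Trbc1 and Trbc2 was found in 95.6% of members, beside 97% in both other sides. With each cell thinned to 500 counts drawn at random from its own, the share was 83.9% in members (76.7% to 89.7%). It was then 87.3% in Ikzf2-positive Foxp3-positive cells (81.3% to 92%) and 89.4% in cells with none of the 3 (86.2% to 92%). Cd4 itself was read in 55 members, and 82 held none. The sum of the 18 genes of CD4 T cell identity stood at 10422 CPM in members, 11195 in Ikzf2-positive Foxp3-positive cells and 10855 in cells with none of the 3. Cd8a and Cd8b1, the chains of CD8, and Zbtb16, the factor of innate-like T cells, were at 0 in all members, and the list of innate-like, gamma delta, CD8 and NK genes summed to 132 CPM, beside 129 and 134. It had 27 counts of 7 of its 20 genes, in 14 members (10.2%). The gamma delta chain genes Trdc and Tcrg-C1 had 3 counts and 1 count in members, each in 1 cell, and 0 in the Ikzf2-positive Foxp3-positive cells. The part of such cells in the results below was not tested.

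Against cells with none of the 3 gate genes, members had higher levels of the Treg genes that could be measured. Of 28 genes of the Treg core list, 27 were in the table and 24 could be compared; all 24 were higher in members, 20 by at least 1.5-fold, with a median log2 ratio of 1.04. Over all 6385 genes compared, 18.4% were at least 1.5-fold higher and 21.8% at least 1.5-fold lower, with a median of -0.01. The list leaves out Ikzf2, Foxp3 and Il10. The members and lists were chosen with earlier results of these data known, so these counts describe the cells and are not independent evidence.

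This list includes co-stimulatory receptors of the tumour necrosis factor receptor (TNFR) family. Tnfrsf9, encoding 4-1BB, was at 574 CPM in members, 786 in Ikzf2-positive Foxp3-positive cells and 97.4 in cells with none of the 3. The ratio of members to the last side was 5.89-fold, or 2.56 on the log2 scale with a 95% interval of 2.11 to 3.02. It was read in 45 of 137 members, 18 of them with 3 or more counts, so the level did not come from a single cell. Tnfrsf4, encoding OX40, was at 628, 979 and 164 CPM, a 3.82-fold ratio over the cells with none of the 3 (log2 1.93, 1.55 to 2.32). Tnfrsf18, encoding GITR, was at 809, 1122 and 332 CPM, a 2.44-fold ratio (log2 1.29, 0.99 to 1.58). For all 3 receptors the members lay between the other sides and nearer to the Foxp3-positive cells. Tnfrsf1b, encoding TNF receptor 2, was at 260, 472 and 143 CPM.

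**Figure D1:**
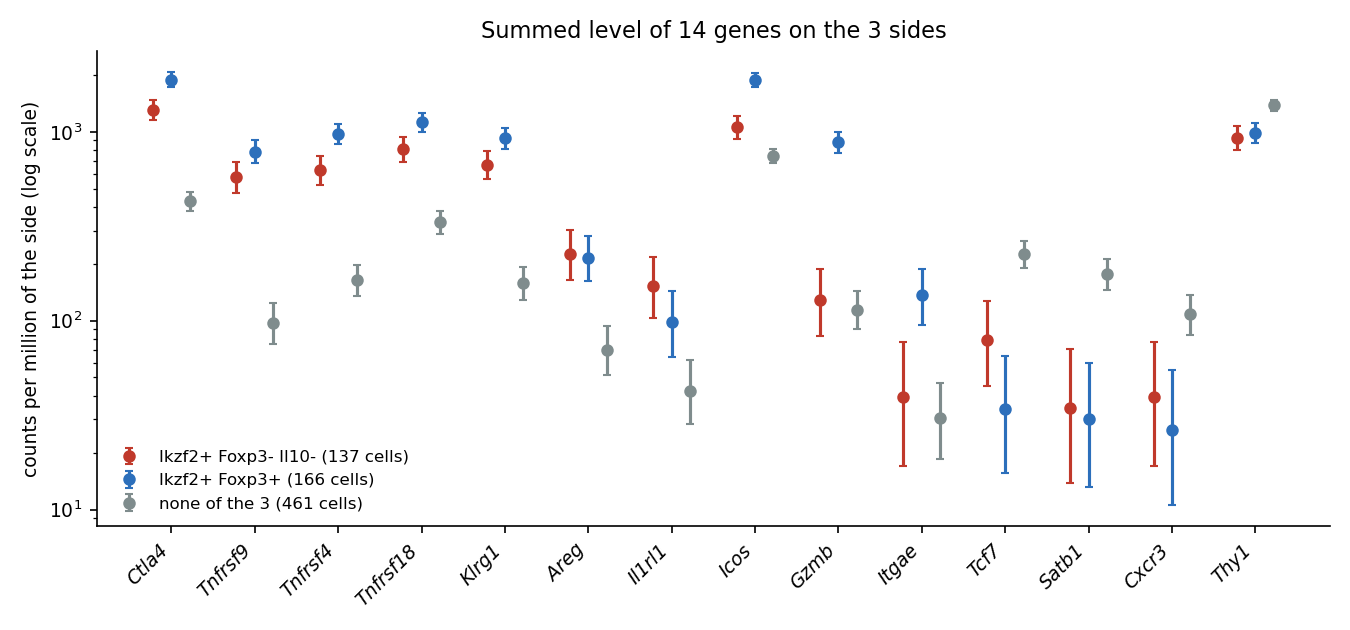
Summed level of 14 genes in CPM (log axis) in the members, the Ikzf2-positive Foxp3-positive cells and the cells with none of the 3 gate genes; points are the pooled level of a side and bars its exact 95% counting interval. The members lie near the Foxp3-positive cells for Tnfrsf9, Areg and Il1rl1, near the cells with none of the 3 for Gzmb and Itgae, and near the Foxp3-positive cells again for the low levels of Satb1 and Cxcr3.

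Ctla4, the inhibitory receptor that competes with CD28 for its ligands, showed how the counts were spread. In members 51 cells had 0 counts, 22 had 1, 23 had 2 and 41 had 3 or more, with a maximum of 10. Among Ikzf2-positive Foxp3-positive cells 37 of 166 had 0 counts and 79 had 3 or more, and among cells with none of the 3, 341 of 461 had 0 and 43 had 3 or more. The pooled levels were 1305, 1890 and 428 CPM. The members exceeded the cells with none of the 3 by 3.05-fold (log2 1.61, 1.36 to 1.86) and lay 1.45-fold below the Ikzf2-positive Foxp3-positive cells (log2 -0.53, -0.75 to -0.32). The latter ratio was -0.18 with counts capped at 1 per cell and -0.13 with at least 2 counts of Ikzf2 on both sides. The ranges of counts per cell overlapped between all sides. Ctla4 lies on chromosome 1 (60887000-60915832, mm10), with Icos beside it (60977927-61000320).

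Klrg1, a receptor of terminally differentiated T cells and of tissue Tregs, was read in 52 members and unread in 85. Its level was 667 CPM in members, 926 in Ikzf2-positive Foxp3-positive cells and 158 in cells with none of the 3, a ratio of 4.21-fold over the last side (log2 2.07, 1.70 to 2.46). Cd83, at 289, 344 and 77.6 CPM, and Fgl2, encoding a secreted suppressive factor, at 495, 775 and 263 CPM, had the same order of levels. Izumo1r, which encodes folate receptor 4, a surface marker of Tregs and anergic cells, was at 245, 181 and 94.4 CPM (log2 against the Ikzf2-positive Foxp3-positive cells 0.43, -0.17 to 1.04). Il2ra, encoding the high-affinity chain of the interleukin 2 receptor, was at 196 CPM, 1.87-fold above the cells with none of the 3 (log2 0.90, 0.30 to 1.48). Tgfb1, encoding a suppressive cytokine made by many cells, was nearly level, at 206, 204 and 187 CPM.

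**Figure D2:**
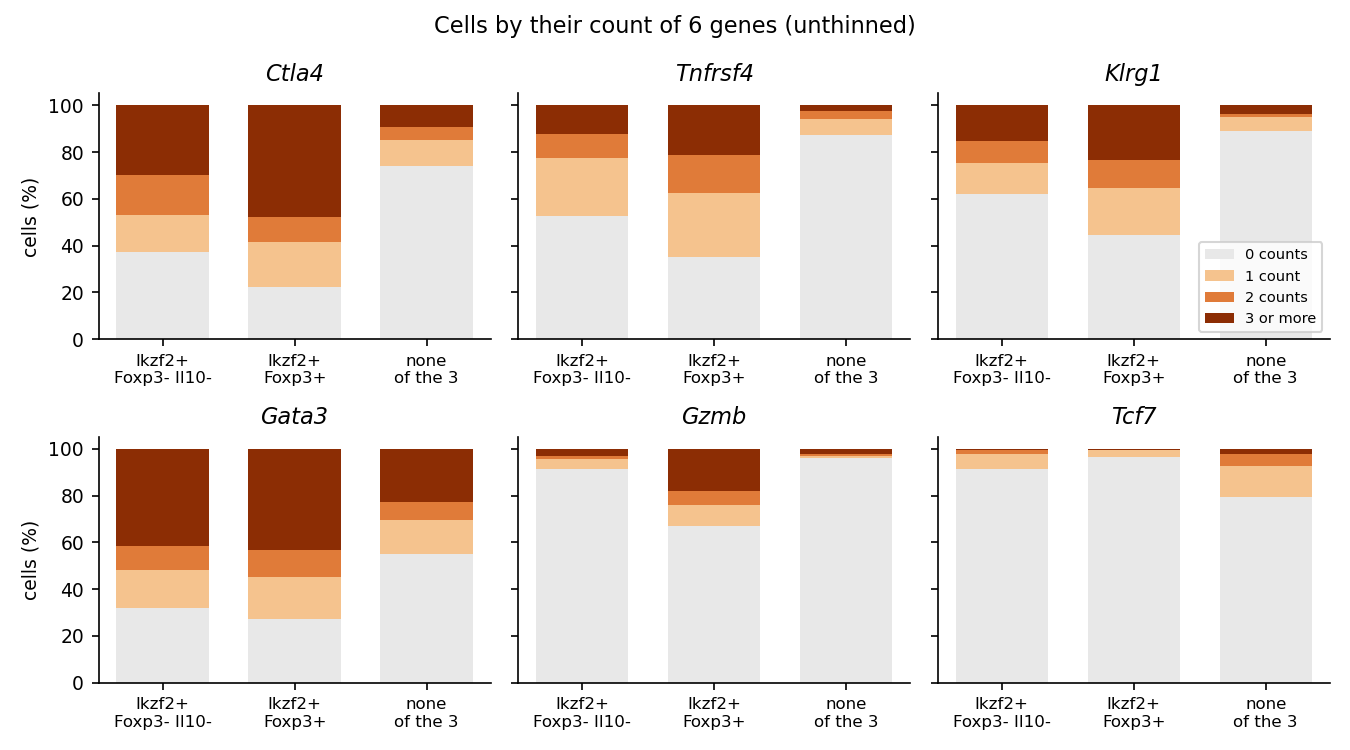
Percent of cells (vertical axis) with 0, 1, 2 or 3 and more counts of Ctla4, Tnfrsf4, Klrg1, Gata3, Gzmb and Tcf7 on the 3 sides, without thinning. The share of members with a count lies between the other sides for each gene shown. For Gzmb 125 of 137 members hold none.

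The Treg genes were also found together in single cells. To compare cells of unequal depth, each cell was thinned to 500 counts drawn at random from its own. This was 1 seeded draw, and the intervals do not cover the spread between draws. Members then held a median of 3 of the Treg core genes (quartiles 2 and 5), Ikzf2-positive Foxp3-positive cells a median of 4 and cells with none of the 3 a median of 1. At least 3 Treg core genes were found in 66.4% of members (57.9% to 74.3%), 81.3% of Ikzf2-positive Foxp3-positive cells (74.6% to 86.9%) and 20% of cells with none of the 3 (16.4% to 23.9%). As a reference for free RNA, 27 cells with Ccr7, the receptor of naive and central memory cells, and none of the gate genes were read. Their share was 0 of 27 (0% to 12.8%, median depth 1252 counts). Single genes were read there, such as Tnfrsf18 in 11.1% of these cells after thinning. The part of free RNA in the shares was not tested. Without thinning, the shares were 86.1%, 95.8% and 42.3%, and 3.7% in the cells with Ccr7. Thinned to 800 counts, with shallower cells left out, they were 70% in members, 89.7% and 27.8% on the other 2 sides, and 0% in the cells with Ccr7. The 96 cells with Foxp3 but neither Ikzf2 nor Il10 had a thinned share of 67.7% (57.4% to 76.9%), which overlaps that of the members.

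**Figure D3:**
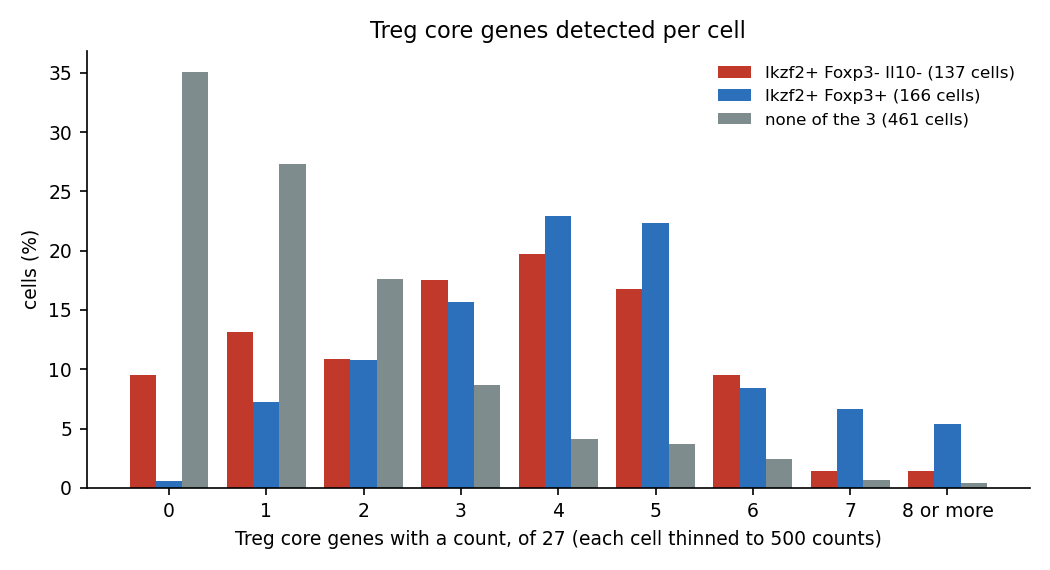
Percent of cells (vertical axis) by the number of Treg core genes with a count (horizontal axis, after thinning to 500 counts) in members, Ikzf2-positive Foxp3-positive cells and cells with none of the 3. The members peak at 4 genes (27 cells, 19.7%), as the Ikzf2-positive Foxp3-positive cells do (38 cells, 22.9%), and 13 members (9.49%) have 0 beside 162 cells (35.1%) with none of the 3.

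Set beside the Ikzf2-positive Foxp3-positive cells, members had lower levels of most Treg core genes. Of 25 genes measured, 19 were lower and 6 higher, 11 by at least 1.5-fold lower and 2 by at least 1.5-fold higher, with a median log2 ratio of -0.53. Over all 6260 genes in this comparison, 20.9% were at least 1.5-fold higher and 22.8% lower, with a median of -0.04. Icos, a co-stimulatory receptor, was at 1055 CPM in members and 1886 in Ikzf2-positive Foxp3-positive cells, 1.79-fold lower (log2 -0.84, -1.08 to -0.61, and -0.16 with counts capped at 1 per cell). Penk, which encodes proenkephalin and marks a group of tissue Tregs, was 3.04-fold lower at 83.4 beside 253 CPM (log2 -1.60, -2.46 to -0.82, and -0.67 with capped counts). Nt5e, encoding the ectoenzyme CD73, was at 53.9 and 121 CPM. Lag3, an inhibitory receptor, had 1 count in all members and 15 in the Ikzf2-positive Foxp3-positive cells (log2 -3.53, -8.93 to -0.83). With at least 2 counts of Ikzf2 asked on both sides, the median of the list moved to -0.13, and with Il10-positive cells left out of the Foxp3-positive side it was -0.31.

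The largest gap among the well measured effector genes was in Gzmb. Its product, granzyme B, is a protease of cytotoxic granules and is made by activated Tregs as well as by killer cells. It was read in 12 members and unread in 125, with at most 6 counts in a cell. Among Ikzf2-positive Foxp3-positive cells 55 of 166 had a count, 30 of them 3 or more, with a maximum of 19. The levels were 128 CPM in members, 881 in Ikzf2-positive Foxp3-positive cells and 114 in cells with none of the 3. Members were thus 6.91-fold below the Ikzf2-positive Foxp3-positive cells (log2 -2.79, -3.43 to -2.20) and 1.12-fold above the cells with none of the 3 (log2 0.16, -0.54 to 0.82, and 1.0, -0.17 to 2.12, with counts capped at 1 per cell). The share of cells with a count was 8.76% in members and 4.12% in the cells with none of the 3, or 4.38% and 3.04% after thinning each cell to 500 counts. With Il10-positive cells left out, the log2 ratio was -2.55, with the Foxp3-positive side at 747 CPM. Cells with Foxp3 but neither Ikzf2 nor Il10 had 413 CPM. With capped counts the log2 ratio against all Ikzf2-positive Foxp3-positive cells was -1.79. Gzmb lies on chromosome 14 (56258838-56262260, minus strand, mm10).

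Itgae and Maf were also lower in members than in the Ikzf2-positive Foxp3-positive cells. Itgae, encoding the integrin chain CD103 that binds epithelial E-cadherin, was at 39.2 CPM in members, 136 in Ikzf2-positive Foxp3-positive cells and 30.4 in cells with none of the 3 (log2 against the Foxp3-positive cells -1.79, -3.11 to -0.66). Maf, a transcription factor of Il10-producing and microbiota-induced T cells, was at 947, 1523 and 801 CPM. Since Il10 was part of the choice of members, Maf was also read against Foxp3-positive cells without Il10, where the log2 ratio was -0.58; against all Ikzf2-positive Foxp3-positive cells it was -0.69, and -0.05 with counts capped at 1 per cell. Of the 21 effector and tissue Treg genes measured, 7 (33.3%, beside 22.8% of all genes) were at least 1.5-fold lower in members than in the Ikzf2-positive Foxp3-positive cells and 2 (9.52%, beside 20.9%) higher. Against the cells with none of the 3, 6 (28.6%, beside 18.4%) were higher and 2 (9.52%, beside 21.8%) lower.

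Areg and Il1rl1 were higher in members than in cells with none of the 3, and their ratios to the Ikzf2-positive Foxp3-positive cells had intervals that include 0. Areg, encoding the tissue repair factor amphiregulin, was at 226 CPM in members, 215 in Ikzf2-positive Foxp3-positive cells and 70 in cells with none of the 3. It was read in 21 members, at most 5 times in a cell. Its ratio to the cells with none of the 3 was 3.22-fold (log2 1.69, 1.07 to 2.31), and to the Ikzf2-positive Foxp3-positive cells 1.05-fold with a wide interval (log2 0.07, -0.53 to 0.65). Il1rl1, encoding the interleukin 33 receptor ST2, was at 152, 98.3 and 42.6 CPM (log2 1.83, 1.05 to 2.63, against cells with none of the 3 and 0.63, -0.17 to 1.44, against the Ikzf2-positive Foxp3-positive cells). Gata3, the transcription factor of type 2 cells and of a thymus-derived group of colonic Tregs, was at 1731, 2158 and 1151 CPM. Its log2 ratio to the Ikzf2-positive Foxp3-positive cells was -0.32 (-0.51 to -0.12), and 0.02 with counts capped at 1 per cell. After thinning it was read in 47.4% of members, 52.4% of Ikzf2-positive Foxp3-positive cells and 31.5% of cells with none of the 3, beside 3.7% of the 27 cells with Ccr7. The type 2 cytokine genes Il4 and Il13 had 0 counts in members. Neither gene could be compared with the other sides, so these counts of 0 show no difference. Of 11 Gata3 and type 2 genes measured, 3 (27.3%, beside 18.4% of all genes) were at least 1.5-fold above the cells with none of the 3. The list had 1 gene lower by that fold (9.09%, beside 21.8%). Its median log2 ratio was 0.10, with 6 genes higher and 5 lower at any fold.

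Genes induced by T cell receptor signalling were higher in members than in cells with none of the 3. Of 23 measured, 14 (60.9%, beside 18.4% of all genes) were at least 1.5-fold higher. Another 2 (8.7%, beside 21.8%) were lower, and the median log2 ratio was 0.67. Nr4a1, an immediate early nuclear receptor that reports receptor signalling, was at 579 CPM in members, 722 in Ikzf2-positive Foxp3-positive cells and 260 in cells with none of the 3 (log2 1.15, 0.80 to 1.5). Its relative Nr4a3 had 10 counts in members and 7 in the cells with none of the 3 (log2 2.20, 0.66 to 3.83). Rel, encoding the NF-kB subunit c-Rel, was 4.08-fold higher (log2 2.03, 0.97 to 3.11), but 1 member held 9 of its 19 counts. Nfkbia and Tnfaip3, feedback inhibitors of NF-kB, were at 2786 and 790 CPM beside 1478 and 411. The 2 lower genes were Tnf, with 2 counts in members and 19 in the cells with none of the 3 (log2 -1.56, -4.71 to 0.49), and Myc, with 2 counts in members and 33 in the cells with none of the 3 (log2 -2.36, -5.46 to -0.39).

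Dissociation of tissue can induce immediate early genes, so the stress list was read beside them. Of 13 stress genes, 3 were at least 1.5-fold higher in members than in cells with none of the 3. That share was 23.1%, beside 18.4% of all genes, and none was lower, beside 21.8%. The median log2 ratio was -0.01. The part of tissue handling in the immediate early genes was not tested.

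Genes tied to agonist selection and anergy, the unresponsive state of T cells that meet antigen without co-stimulation, showed an uneven picture. Against cells with none of the 3, 9 of 19 (47.4%, beside 18.4% of all genes) were at least 1.5-fold higher. The 1 lower gene made 5.26%, beside 21.8%. Cblb, a ubiquitin ligase that restrains receptor signalling, was at 123 CPM in members, 56.7 in Ikzf2-positive Foxp3-positive cells and 32 in cells with none of the 3. It stood above both other sides (log2 1.94, 1.04 to 2.85, and 1.11, 0.13 to 2.14), on 25 counts in 15 members. Dgka, a kinase that ends diacylglycerol signalling and is another anergy gene, went the other way, at 88.3, 174 and 215 CPM (log2 against cells with none of the 3, -1.28, -2.08 to -0.57). Tox, a factor of chronically stimulated T cells, was at 167, 363 and 120 CPM. Cd200r1, an inhibitory receptor, was at 147, 90.7 and 47.2 CPM. Il2 was read in 12 members, at 83.4 CPM beside 37.8 and 68.5, and neither ratio left out 0 in its interval.

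Naive and circulating genes were lower in members than in cells with none of the 3. Of 18 measured, 14 (77.8%, beside 21.8% of all genes) were at least 1.5-fold lower than in that side. Another 2 (11.1%, beside 18.4%) were higher, and the median log2 ratio was -1.12. Against the Ikzf2-positive Foxp3-positive cells, 8 of 17 (47.1%, beside 20.9% of all genes) were at least 1.5-fold higher in members. Lower were 4 (23.5%, beside 22.8%). The median was 0.30, and -0.14 with counts capped at 1 per cell. Tcf7, the transcription factor of naive and memory precursor cells, had 16 counts in members (78.5 CPM), 9 in Ikzf2-positive Foxp3-positive cells (34 CPM) and 147 in cells with none of the 3 (224 CPM). It was 2.85-fold lower in members than in the last side (log2 -1.51, -2.36 to -0.76). Satb1, a chromatin organiser of naive T cells, was 5.14-fold lower (log2 -2.36, -3.71 to -1.27), and Bcl2, the survival factor, 5.97-fold lower on 4 counts (log2 -2.58, -4.49 to -1.16). Igfbp4 had 0 counts in members and 95 in cells with none of the 3, at least 9.83-fold lower with 3 counts over the members as the floor. The exceptions were Il7r, the interleukin 7 receptor, at 196 beside 129 CPM, and Cd27, a co-stimulatory receptor of the TNFR family, at 280 beside 169 CPM (log2 0.73, 0.24 to 1.2, and 0.03, -0.94 to 0.92, after thinning).

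**Figure D4:**
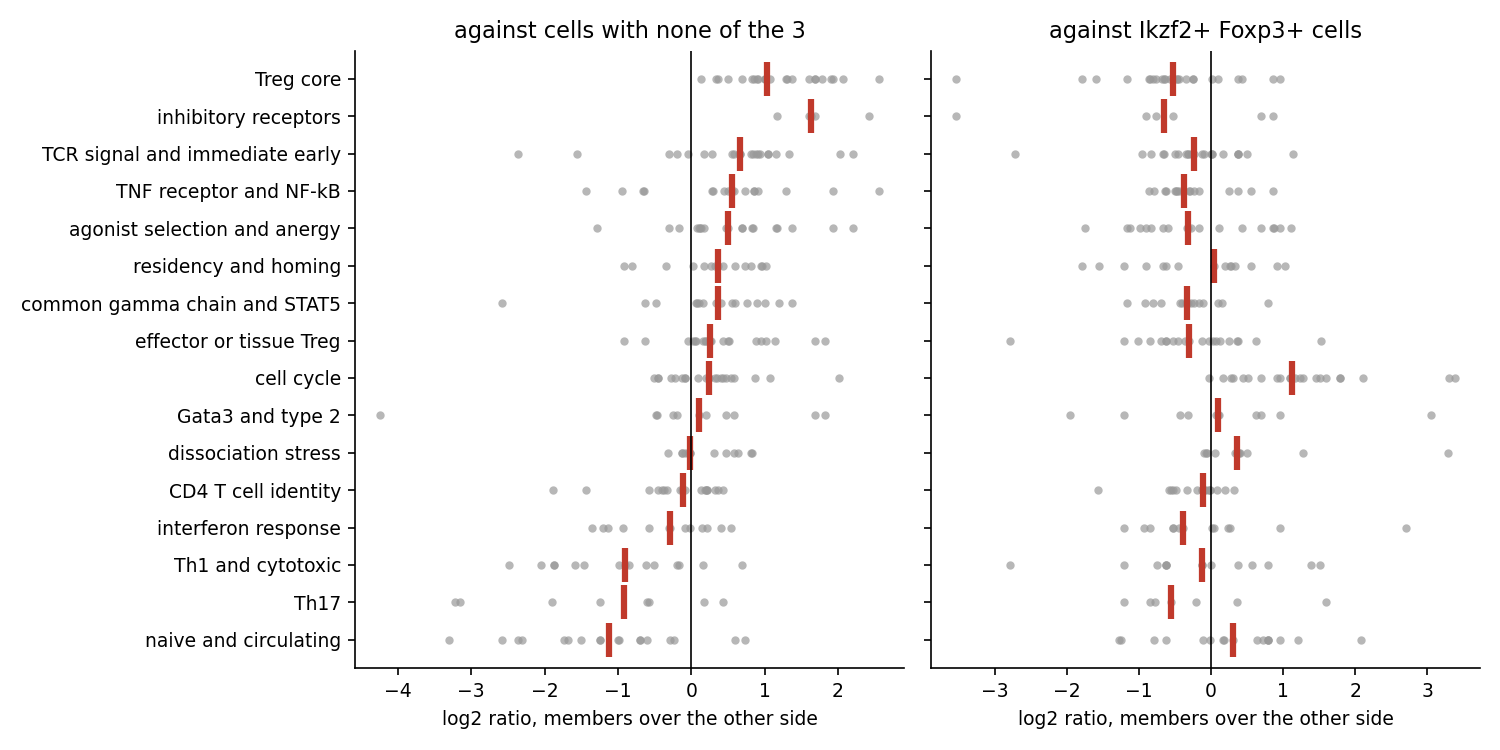
Log2 ratio of members over cells with none of the 3 gate genes (left) and over Ikzf2-positive Foxp3-positive cells (right) for 16 gene lists; each grey point is a gene with at least 30 counts over all kept cells, including bounds where a side has 0 counts, and the red bar is the list's median. The Treg core list has its median at 1.04 on the left and -0.53 on the right, the naive list at -1.12 and 0.30, and the cell cycle list at 0.24 and 1.13.

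Pooled levels of most genes of helper effector fates were also lower in members than in cells with none of the 3. Of 15 Th1 and cytotoxic genes, 10 (66.7%, beside 21.8% of all genes) were at least 1.5-fold lower than in that side. The list had 1 higher gene (6.67%, beside 18.4%) and a median of -0.90. Tbx21, the Th1 transcription factor, and Ifng, the Th1 cytokine, each had 4 counts in members and 47 in the cells with none of the 3 (log2 -1.87, -3.80 to -0.42 for both). Cxcr3, a Th1 homing receptor, was at 39.2 beside 108 CPM (log2 -1.46, -2.73 to -0.41). Ccl5 was at 108 beside 120 CPM (log2 -0.16, and 0.74, -0.53 to 1.92, with capped counts), and at 37.8 CPM in the Ikzf2-positive Foxp3-positive cells. Of 8 Th17 genes, 5 (62.5%, beside 21.8% of all genes) were at least 1.5-fold lower than in cells with none of the 3. None was higher, beside 18.4%. Tmem176b had 3 counts in members, all in 1 cell, and 86 in cells with none of the 3 (log2 -3.15, -5.46 to -1.56). Il17a had 1 count in members and 30 in the other side (log2 -3.22, -8.57 to -0.63). The Ikzf2-positive Foxp3-positive cells had 3 counts of Tbx21 and 0 of Il17a, so no difference from members was detectable at this depth. The shares of cells were closer. After thinning, any of Tbx21, Ifng, Ccl5, Nkg7 and Cxcr3 was read in 10.2% of members (5.7% to 16.6%). In cells with none of the 3 it was 15.6% (12.4% to 19.3%). For any of Il17a, Il17f, Il22, Il23r and Ccr6 the shares were 2.92% (0.801% to 7.31%) and 4.99% (3.19% to 7.39%). Each pair of intervals overlaps. Without thinning, the shares were 21.9% and 24.7%, and 5.11% and 8.24%.

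Within the T cell identity list, 2 of 18 genes (11.1%, beside 21.8% of all genes) were at least 1.5-fold lower in members than in cells with none of the 3 and none was higher. One of them was Zap70, the kinase that docks on the T cell receptor, at 29.4 beside 108 CPM (log2 -1.88, -3.37 to -0.68, and -0.57, -3.00 to 1.25, after thinning). Thy1, a surface glycoprotein of T cells, was at 932 beside 1384 CPM (log2 -0.57, -0.80 to -0.34), close to the 983 CPM of Ikzf2-positive Foxp3-positive cells. Trac was nearly level on all sides, at 1310, 1429 and 1137 CPM.

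Of the other Ikaros family genes, Ikzf4, which encodes Eos, a partner of Foxp3, was at 58.9 CPM in members, 94.5 in Ikzf2-positive Foxp3-positive cells and 18.3 in cells with none of the 3 (log2 against the last, 1.69, 0.40 to 2.97). Ikzf1, encoding Ikaros, ran in the opposite order, at 152, 79.4 and 239 CPM. Members lay between the other sides for both genes (Ikzf1 against cells with none of the 3, log2 -0.65, -1.26 to -0.09, and against Ikzf2-positive Foxp3-positive cells 0.94, 0.09 to 1.81).

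Cell cycle genes were higher in members than in Ikzf2-positive Foxp3-positive cells, with a median log2 ratio of 1.13. At least 1.5-fold higher were 16 of 22 (72.7%, beside 20.9% of all genes), and none was lower, beside 22.8%. A few cells carried these genes: 5 members held 41.6% of the list's counts. Top2a, a topoisomerase of dividing cells, had 38 counts in 10 members and 5 counts in 3 Ikzf2-positive Foxp3-positive cells (log2 3.30, 1.95 to 5.0, and 1.69 after thinning). After thinning, at least 3 cell cycle genes were found in 13 members (9.49%, 5.15% to 15.7%), 11 Ikzf2-positive Foxp3-positive cells (6.63%, 3.35% to 11.5%) and 43 cells with none of the 3 (9.33%), and these intervals overlap. Without thinning, members had the lower share of the first 2 sides. It was 29.2% (21.7% to 37.6%), beside 33.7% (26.6% to 41.5%) in Ikzf2-positive Foxp3-positive cells and 24.9% in cells with none of the 3. The median of the list was 0.50 after thinning and 0.26 with at least 2 counts of Ikzf2 on both sides.

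The members were not alike. Each cell's 15 nearest neighbours were found from 2000 variable genes without the 3 gate genes, and the Foxp3-positive cells among them were counted. Foxp3-positive cells made up a mean of 36% of the neighbours of members (SD over cells 20.5), 44.5% in Ikzf2-positive Foxp3-positive cells (SD 16.6) and 15.3% in cells with none of the 3 (SD 16.7), where a share of 31.6% would be that of all other cells. Among members, 33 (24.1%) had 0 to 2 such neighbours, 30 had 3 to 5, 50 had 6 to 8 and 24 had 9 or more. The class of 0 to 2 held 7.23% of Ikzf2-positive Foxp3-positive cells and 67.5% of cells with none of the 3. With each cell thinned to 500 counts, the mean share was 32.7% for members, near the 31.6% of all other cells. It was then 40.4% for Ikzf2-positive Foxp3-positive cells and 19.5% for cells with none of the 3.

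**Figure D5:**
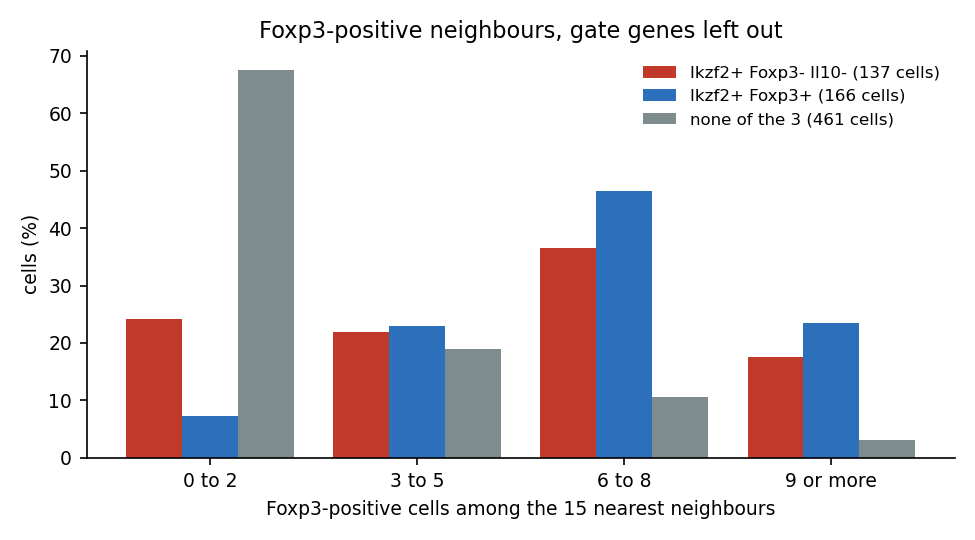
Percent of cells (vertical axis) by the number of Foxp3-positive cells among their 15 nearest neighbours (horizontal axis) for members, Ikzf2-positive Foxp3-positive cells and cells with none of the 3. Of the members, 36.5% fall in the class of 6 to 8, where 46.4% of the Ikzf2-positive Foxp3-positive cells and 10.6% of the cells with none of the 3 also fall, and 24.1% fall in the class of 0 to 2.

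The classes of members differed in the genes above, which took part in the neighbour search, so the following values are a description only. The Treg core list summed to 3146 CPM in the 33 members with 0 to 2 Foxp3-positive neighbours, 7520 in the 30 with 3 to 5 and 10666 in the 74 with 6 or more. Ctla4 was read in 15.2%, 56.7% and 86.5% of these cells, and Klrg1 in 6.06%, 46.7% and 48.6%. Median depth was 1017, 1237.5 and 1255 counts. Gzmb stayed low in all 3, at 0, 116 and 192 CPM, below the 881 CPM of Ikzf2-positive Foxp3-positive cells. Tcf7 had 8 of its 16 counts in the members with 0 to 2.

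Whether the same genes differ with Ikzf2 among Foxp3-positive cells was read in 90 cells with Ikzf2 and 96 without, all with Foxp3 and without Il10. These share no cell with the comparison of members against cells with none of the 3. Of 5761 genes, 25.6% were at least 1.5-fold higher with Ikzf2 and 25.4% lower. Over 2651 genes with at least 100 counts, ratios of the 2 comparisons correlated at 0.10 (Pearson) and 0.06 (Spearman). Of the 342 at least 1.5-fold higher in members, 28.7% were also higher with Ikzf2 here, beside 18.5% of all 2651. Of the 314 lower in members, 22.6% were also lower here, beside 17.1%. Of 25 Treg core genes, 5 (20%, beside 25.6% of all genes) were at least 1.5-fold higher with Ikzf2. Another 5 (20%, beside 25.4%) were lower. At any fold 12 were higher and 13 lower, with a median log2 ratio of -0.09. Ctla4 was nearly level at 1588 CPM with Ikzf2 and 1556 without (log2 0.03, -0.25 to 0.30), and Icos was at 1652 and 1900 CPM. Gata3 was 2076 and 1019 CPM (log2 1.03, 0.74 to 1.32), Tnfrsf9 690 and 317 (log2 1.12, 0.60 to 1.66), Klrg1 891 and 537 (log2 0.73, 0.31 to 1.16) and Areg 165 and 68.8 (log2 1.26, 0.14 to 2.50). Whether these ratios differ from those of the members could not be tested with 1 pooled sample.

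Markers of other cell types were counted beside these results. The markers were those of B, epithelial, stromal (without Vim), erythroid and mast cells, and of the myeloid genes only Lyz2, C1qa, C1qb and Csf1r. At least 2 of them were found in 10 members (7.3%), 7 Ikzf2-positive Foxp3-positive cells (4.22%) and 22 cells with none of the 3 (4.77%). Epithelial genes had 458 counts in members, 445 of them in 1 cell, so their 11 of 11 genes at least 1.5-fold above the Ikzf2-positive Foxp3-positive cells rest on that cell. Myeloid genes summed to 1094 CPM in members, 552 and 633 on the other sides, with 114 of 223 counts in 1 member. Hba-a1, Hbb-bs and the other erythroid and mast cell markers were at 0 in members. Without the cells holding at least 2 of the markers named first, the Treg core median was 1.15 against cells with none of the 3. It was -0.43 against Ikzf2-positive Foxp3-positive cells. Scrublet, which scores barcodes that resemble 2 cells, called 2 members among 9 of 1050 cells, and leaving these out gave medians of 1.07 and -0.47.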

How the data were processed

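The authors deposited 1 table of counts per barcode and gene, made with TopHat2 and SAMtools on mm10 per the submitters' processing notes, which give no versions. How molecular identifiers were collapsed, and which gene annotation was counted, is not given in the sources used here. All 4 labelled samples were handled as 1 pooled sample, so no replicate error or p-value exists.

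Counts were summed over the cells of a side and divided by the side's total (CPM). Each comparison is a log2 ratio with an exact conditional 95% interval. Genes with at least 30 counts over all kept cells entered, a side with 0 counts was set to a floor of 3, and a gene was called past 1.5-fold. No ratio was given where both sides had 3 counts or fewer. Shares of cells were taken after thinning to 500 counts in 1 seeded draw and carry exact binomial (Clopper-Pearson) intervals. Neighbours were found on counts scaled to 10000 per cell, 2000 variable genes, 20 principal components and 15 neighbours (scanpy 1.11.5, scikit-learn 1.9.0). PCR copies may not be independent molecules.

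The members and gene lists were chosen with earlier results of these data known. Genes were named from these lists, from a fixed set, and as the 10 highest and 10 lowest ratios of the first 2 comparisons among genes whose interval left out 0, with a count in at least 10 cells of the higher side and the same sign when counts were capped at 1; a few other list members (Ccr2, Fgl2, Igfbp4, Il4, Il13, Myc, Nr4a3, Nt5e, Rel, Tgfb1, Tnfaip3 and Trac) were named after their values were seen. Coordinates are from GENCODE vM21 (mm10), which matched 25033 of 25724 symbols (97.3%). A few results are not reported here. The calculation was tested on simulated data. The alternatives are given at the end.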

Additional observations from a re-analysis of the deposited data

Results flagged for a closer look

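Data outside the comparisons held cells of the same gate. Of the barcodes left out by the filter on depth, genes and mitochondrial share, 20 had Ikzf2 and neither Foxp3 nor Il10. Their median was 217.5 counts, and 1 of them had at least 500. At that depth the absence of Foxp3 and Il10 says less than in the kept cells, and they entered no comparison.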

How the results depend on the processing

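No paired analysis was possible because the barcodes carry no sample, and leaving out a replicate could not be run for the same reason. The counts of genes past 1.5-fold moved with the minimum count: with at least 10 counts per gene 1887 were higher and 2176 lower against cells with none of the 3, and with at least 100 counts 344 and 320, while 320 and 372 were higher and lower against Ikzf2-positive Foxp3-positive cells and 490 and 453 with Ikzf2 among Foxp3-positive cells. Thinned to 500 counts, the last comparison had 845 higher and 896 lower. The Treg core median against Ikzf2-positive Foxp3-positive cells was -0.13 with at least 2 counts of Ikzf2 on both sides. Against cells with none of the 3 it ranged from 0.99 to 1.5 over 11 alternatives. The share of cells with at least 3 Treg core genes was taken without thinning and thinned to 800. It was 86.1% and 70% in members, 95.8% and 89.7% in Ikzf2-positive Foxp3-positive cells, and 42.3% and 27.8% in cells with none of the 3. With at least 1000 counts 89 members were left, and with at least 2 counts of Ikzf2 69. Of 1140 alternative values for single genes, 5 changed sign where the interval of the main setting left out 0. The 1140 include genes whose main interval held 0, for which a change of sign was not counted. Against Ikzf2-positive Foxp3-positive cells Gata3 and Nfkbia were 0.02 with capped counts, Klrg1 0.11 and Tnfaip3 0.07 with at least 2 counts of Ikzf2, and Tnfaip3 0.20 without Il10-positive cells. The causes were not tested. Depth limits all genes under about 30 counts.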

Other observations

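Among the genes picked by size of ratio, several had no place in the lists above. Wls, which encodes the carrier of secreted Wnt proteins, had 27 counts in 15 members and 13 counts in cells with none of the 3, at 132 beside 19.8 CPM (log2 2.74, 1.74 to 3.82). It was at 110 CPM in Ikzf2-positive Foxp3-positive cells. Frmd5 was at 83.4, 102 and 10.7 CPM in members, Ikzf2-positive Foxp3-positive cells and cells with none of the 3. Spast, encoding the microtubule-severing protein spastin, and Wash1, encoding a subunit of an endosomal actin complex, were each at 98.1 CPM in members, above both other sides (26.5 and 19.8 for Spast, 22.7 and 21.3 for Wash1). After thinning, the log2 ratio of Wash1 to the cells with none of the 3 was 0.94 (-1.28 to 2.92), beside 2.20 (1.14 to 3.30) without it. Nfe2l2, encoding the antioxidant factor NRF2, had 17 counts in 12 members and 2 counts in Ikzf2-positive Foxp3-positive cells (log2 3.46, 1.39 to 6.62), but 53.3 CPM in cells with none of the 3. These genes were taken from the ends of all ratios and rest on few counts.

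Among homing and cytokine signalling genes, Cxcr6, a receptor that holds T cells in tissue, was at 226 CPM in members, 310 in Ikzf2-positive Foxp3-positive cells and 428 in cells with none of the 3 (log2 against the last, -0.92, -1.41 to -0.47). Itga4, the integrin chain of gut homing, was at 329, 261 and 187 CPM, and Ccr2 at 500, 718 and 353. Pim1, a kinase induced through STAT5, was at 1403, 1754 and 612 CPM (log2 1.20, 0.97 to 1.42), and Il21r, the interleukin 21 receptor, at 118, 106 and 45.7. Rgs2, a regulator of G protein signalling, was at 1344, 1119 and 691 CPM and was the one gene named in this paragraph that was higher in members than on either other side with both intervals leaving out 0. Of 13 interferon response genes, 4 (30.8%, beside 21.8% of all genes) were at least 1.5-fold lower in members than in cells with none of the 3 and none was higher.

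At the other end, the lowest ratios rested on 1 to 4 counts in members. Cd226, a co-stimulatory receptor that shares ligands with Tigit, had 1 count in members, 12 in Ikzf2-positive Foxp3-positive cells and 40 in 27 cells with none of the 3 (log2 against the last, -3.63, -8.97 to -1.07). Hk2, encoding the glycolytic enzyme hexokinase 2, had 1 count in members and 47 in 32 cells with none of the 3 (log2 -3.87, -9.20 to -1.32). Muc2, the goblet cell mucin, had 4 counts in members and 1270 in cells with none of the 3, but 869 of these lay in 1 cell. Against Ikzf2-positive Foxp3-positive cells, Dhrs1 and Ubfd1 had 2 and 3 counts in members beside 29 and 30 (log2 -3.48, -6.59 to -1.5 and -2.95, -5.30 to -1.26).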
